A study of Rattus norvegicus with 8 samples.

Results

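Gad1, Gad2, Sst, Pvalb, Calb1, Calb2, Lhx6 and Nxph1 are 8 genes of GABA interneurons, the local inhibitory neurons of the forebrain. They were picked by name from the 15892 gene symbols listed for both tissues. All 8 were found in both tables, and all 8 were among the 10554 genes whose mean over the 8 libraries was at least 1 FPKM. RNA came from the hippocampus (4 libraries) and the hypothalamus (4 libraries) of male Sprague Dawley rats, an outbred strain. Both groups shared every treatment: the animals were 2 months old at the start and drank water with 15% fructose and ate a diet holding DHA, an omega-3 fatty acid, for 6 weeks. The one labelled contrast is therefore tissue, and no effect of fructose or DHA can be read from these libraries. No label states that each library is from its own animal, so the spread below is that between libraries and may in part be technical.

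GABA interneurons make their transmitter from glutamate with glutamate decarboxylase, of which there are a pair of forms: Gad1 encodes GAD67, found throughout the cell, and Gad2 encodes GAD65, held mostly at the nerve terminal. Many cortical and hippocampal interneurons are born in the medial ganglionic eminence, carry the transcription factor Lhx6, and mature into cells that make either somatostatin (Sst) or the calcium buffer parvalbumin (Pvalb). Calbindin (Calb1) and calretinin (Calb2) are further calcium-binding proteins of interneuron classes. Calb1 is also strong in dentate granule cells and CA1 pyramidal cells, and Calb2 in thalamic neurons and, in some rodents, in hippocampal mossy cells. In the hypothalamus GABA neurons are not only local: many are projection or neuroendocrine cells, and Sst there marks periventricular neurons that restrain growth hormone release. In tissue RNA, fewer cells of a type and less RNA in each cell cannot be told apart.

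Levels are FPKM, fragments counted per length of transcript and per total of fragments in the library, divided by 1 factor per library (0.892 to 0.950 in hippocampus and 1.07 to 1.12 in hypothalamus). Differences are hypothalamus minus hippocampus on the scale of log2(FPKM + 1), on which the change of a low gene is understated. To be called, a gene needed a difference of at least 1, a change of 2-fold, in which no library of one tissue overlapped with the other tissue. The tissues were listed in separate tables, normalised apart, so tissue and table cannot be told apart, no test was made across them, and each statement on a difference sets levels side by side.

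The tissue markers went with the labels. Slc17a7, the vesicular glutamate transporter of hippocampal excitatory neurons, stood at 624 to 1118 FPKM in hippocampus and 0.131 to 0.941 in hypothalamus, and Avp, encoding vasopressin, at 0 to 0.266 against 1987 to 7363. Some libraries stood apart. Replicates 3 and 4 of hippocampus were high in choroid plexus genes, with a summed level of Ttr, Kl and Clic6 of 6761 and 5056 FPKM against 39.7 and 40.1 in replicates 1 and 2, and replicate 4 held the pineal gene Tph1 at 148 FPKM. Pituitary markers summed to 76.9 to 521 FPKM in hypothalamus, lowest in replicate 4. Most of this was Cga (18.2 to 293 FPKM) and Pomc (56.9 to 222), with Tshb at 1.83 to 14.1. Of the same list, Gh1 was at 0 to 0.139 FPKM in hypothalamus and Prl at 0. Whether these libraries held pituitary tissue was not tested. Replicate 1 of each tissue differed in how values fell on loci: among symbols with 2 loci, the locus with the lower mean had a median of 0.961 FPKM in hippocampus replicate 1 against 5.67 to 6.76 in the others, and of 1.87 in hypothalamus replicate 1 against 4.53 to 5.33. The depth of the libraries is unknown, since the tables give no counts.

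Gad2 and Calb2 were higher in hypothalamus, Gad1 was higher in every hypothalamus library but by less than 2-fold, and the libraries of Sst, Pvalb, Calb1, Lhx6 and Nxph1 overlapped between the tissues. In all, 2 of the 8 genes were called higher and 0 lower, where 13.3% of all 10554 genes were called higher and 13.4% lower, or 26.7% in either direction. The tissues did not overlap for 3 of the 8, all of them higher, where this held for 53.4% of all genes (25.7% higher and 27.7% lower). With so few genes, these counts against the background are no result about the group. The median difference over the 8 was 0.58, against -0.04 over all genes. With FPKM as deposited the median over all genes was 0.18, with 1912 genes higher and 1018 lower in place of 1402 and 1414, and the same 2 members were called.

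**Figure D1:**
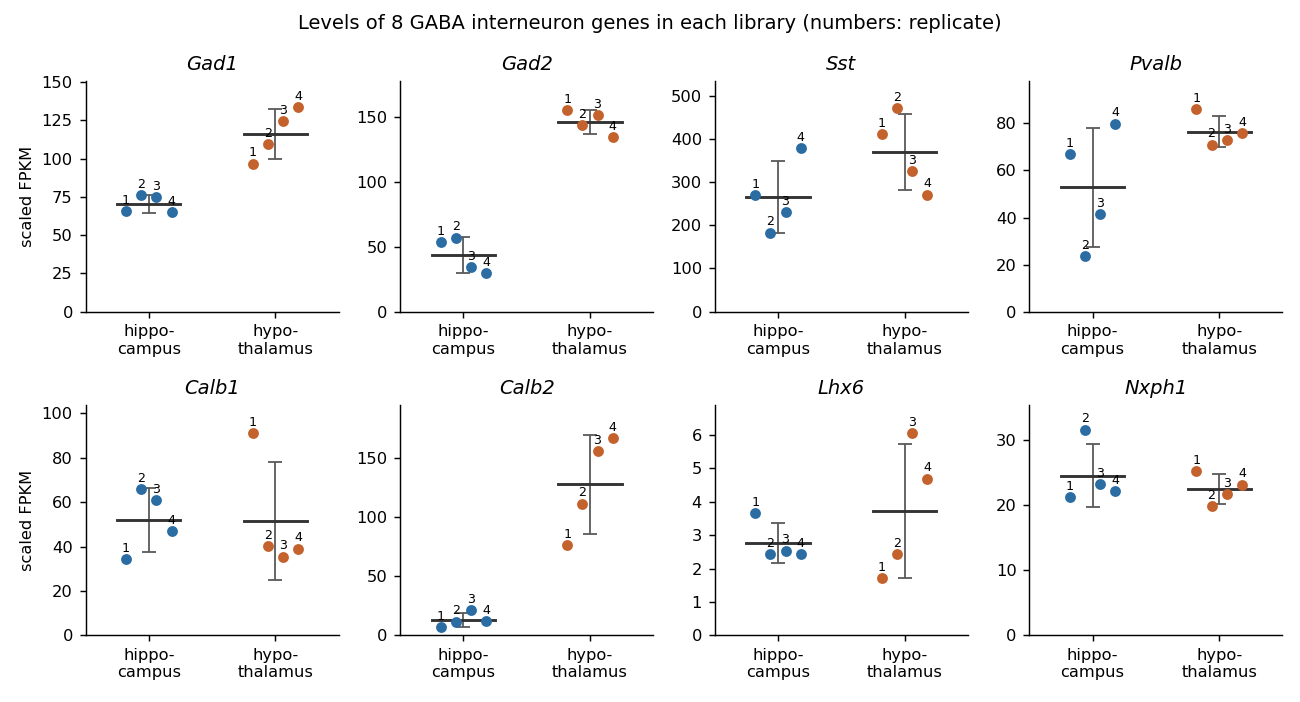
Scaled FPKM (vertical axes, each from 0) of the 8 genes in the 4 hippocampus libraries (blue) and the 4 hypothalamus libraries (orange), with replicate numbers, the mean (bar) and the SD (whiskers). Calb2 and Gad2 are well apart between the tissues (13.1 against 128 and 43.8 against 147 FPKM on average), while Sst, Pvalb, Calb1, Lhx6 and Nxph1 overlap.

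Upstream sequence was available for some of these genes. Of the 8 members, 6 had an entry in the RefSeq promoter table (build GRCr8), and for 3 of these, Gad2, Sst and Nxph1, the window ended right at the start of the annotated gene. Their 250 bases upstream of the start are shown because Gad2 was called higher in hypothalamus while Sst and Nxph1 were not. Capitals mark each CG dinucleotide, the site of DNA methylation.

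Gad2, chr17:89671468-89671717, plus strand: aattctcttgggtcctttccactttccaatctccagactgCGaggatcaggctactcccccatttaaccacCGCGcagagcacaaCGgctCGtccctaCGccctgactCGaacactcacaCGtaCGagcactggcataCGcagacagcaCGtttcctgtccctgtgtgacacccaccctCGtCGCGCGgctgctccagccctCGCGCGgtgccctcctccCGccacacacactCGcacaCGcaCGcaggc
Sst, chr11:90461296-90461545, plus strand: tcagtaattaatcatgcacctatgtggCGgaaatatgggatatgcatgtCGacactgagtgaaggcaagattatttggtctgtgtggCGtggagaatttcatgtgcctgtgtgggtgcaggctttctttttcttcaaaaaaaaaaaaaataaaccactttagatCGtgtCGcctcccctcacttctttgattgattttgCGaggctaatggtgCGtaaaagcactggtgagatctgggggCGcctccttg
Nxph1, chr4:37964075-37964324, plus strand: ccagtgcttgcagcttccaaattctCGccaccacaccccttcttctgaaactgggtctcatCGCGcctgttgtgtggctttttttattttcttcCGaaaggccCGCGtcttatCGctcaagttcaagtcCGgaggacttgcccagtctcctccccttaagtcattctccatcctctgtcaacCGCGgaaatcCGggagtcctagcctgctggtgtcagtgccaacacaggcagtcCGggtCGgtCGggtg

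The Gad2 window held 22 CG dinucleotides at a GC content of 62.0%, and 13.7% of all 33469 windows of this length held at least as many. The Nxph1 window held 14 (27.6% of windows with at least as many) and the Sst window 8 (41.6%), with a median over all windows of 5. The TATA sequence TATAAA was in none of the 3 windows on either strand and in 12.9% of all windows. The CCAAT box was found once upstream of Gad2 and in 34.0% of all windows. The homeodomain core TAATTA was found once upstream of Sst and in 4.86% of all windows. Such matches describe letters and not binding, and nothing here measured methylation or binding. Where transcription starts was not measured either, so a window that ends at the annotated start may miss part of the promoter.

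Among the enzymes that make GABA, Gad1 stood at 65.8, 75.9, 74.8 and 65.3 FPKM in hippocampus replicates 1 to 4 and at 96.6, 109, 124 and 133 in hypothalamus. The tissues did not overlap, and in hippocampus Gad1 was steadier than most genes, with an SD of 0.12 in log2 against a median of 0.26 over the 7783 genes that averaged 5 FPKM or more. Its difference was 0.70 ± 0.12 (SE, 4 against 4 libraries), short of the 2-fold limit, and 0.94 with FPKM as deposited. Gad2 stood at 54.0, 57.3, 34.3 and 29.7 FPKM in hippocampus and at 155, 144, 152 and 135 in hypothalamus, with a difference of 1.77 ± 0.23. Every hypothalamus library held more than 2 times the Gad2 of the highest hippocampus library. Gad2 was lowest in hippocampus replicates 3 and 4, the libraries high in choroid plexus genes, and without them its difference was 1.36 and it was still called.

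The order of the decarboxylase genes turned between the tissues. The ratio of Gad2 to Gad1 within a library, which does not depend on the library's scaling factor, was 0.822, 0.754, 0.458 and 0.456 in hippocampus and 1.61, 1.32, 1.22 and 1.01 in hypothalamus. Gad1 led in all 4 hippocampus libraries, and Gad2 led in all 4 hypothalamus libraries, by a small margin in replicate 4. Gad2 was listed at 1 locus for hippocampus and at 2 for hypothalamus, the lesser one at 0, 1.34, 12.9 and 4.98 FPKM, and with the main locus alone the ratio in hypothalamus replicate 4 was 0.974, below 1, while the ranges still did not overlap. The mean difference in this ratio was 1.08 ± 0.27 on the log2 scale.

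Calb2, the calretinin gene, had the largest difference of the 8. It stood at 6.90, 11.8, 21.4 and 12.2 FPKM in hippocampus and at 76.7, 112, 156 and 167 in hypothalamus, a 9.77-fold higher mean. The lowest hypothalamus library lay above the highest hippocampus library, and the difference was 3.23 ± 0.40. Spread within each tissue was wide, with an SD of 0.62 in hippocampus and 0.51 in hypothalamus, above that of 94.8% and 94.7% of genes. Calb2 is shared with thalamic neurons, and the thalamic markers moved with it in part. Tcf7l2, Lef1, Prkcd, Rora and Slc17a6 together summed to 21.7 to 51.8 FPKM in hippocampus, highest in replicate 3 where Calb2 was highest too, and to 69.2 to 103 in hypothalamus, highest in replicate 1 where Calb2 was lowest. Of these 5 genes 2 were called higher in hypothalamus, where 13.3% of all genes were. Slc17a6 is also a hypothalamic gene, and none was listed at 0. The peak of the sum in hypothalamus replicate 1 was that of Slc17a6, at 77.1 FPKM against 41.2, 39.8 and 42.5 in replicates 2 to 4. In hypothalamus Tcf7l2 and Lef1 were lowest in replicate 1, as Calb2 was, Prkcd in replicate 2 and Rora in replicate 4. The part of these genes in the Calb2 level was not tested.

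Calb1, the calbindin gene, had no direction that held across settings. Summed over loci it stood at 34.3, 65.9, 60.8 and 46.9 FPKM in hippocampus and at 91.1, 40.3, 35.5 and 39.0 in hypothalamus, with a difference of -0.08 ± 0.37. In hypothalamus replicate 1 was far above the other 3 libraries, and in hippocampus replicate 1 was the lowest. The table of hippocampus listed Calb1 at 2 loci, one at 33.4, 30.6, 32.8 and 23.4 FPKM and the other at 0.879, 35.4, 28.0 and 23.4, so nearly all of the low sum in replicate 1 lay on a single locus. The table of hypothalamus listed 1 locus. With only the highest locus of each symbol the difference was 0.65, with no overlap (24.8% of all genes were higher without overlap by that route). Without replicate 1 of both tissues it was -0.58, with no overlap in the other direction. Whether the 2 hippocampus loci are parts of one gene or count the same reads cannot be told from the tables. Calb1 also marks dentate granule cells, whose other markers (Prox1, C1ql2 and Tdo2) summed to 27.0 to 76.6 FPKM in hippocampus, highest in replicate 1, and to 14.9 to 18.6 in hypothalamus. The markers did not go together in hippocampus. C1ql2 was at 63.5, 17.5, 29.0 and 19.6 FPKM in replicates 1 to 4. Prox1 was at 13.1, 19.9, 17.1 and 7.31, highest in replicate 2 as Calb1 was, and Tdo2 at 0 to 0.095.

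**Figure D2:**
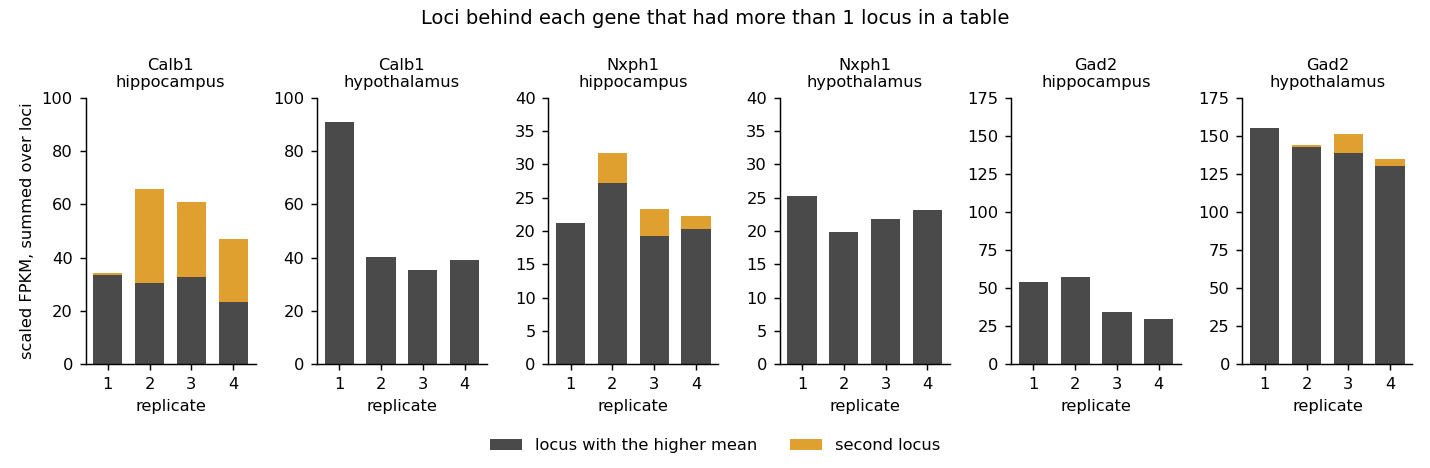
Scaled FPKM by replicate (horizontal axis) for the 3 genes with more than 1 locus in a table, stacked by locus: the locus with the higher mean in dark grey and the other in orange. In hippocampus replicate 1 the other Calb1 locus is at 0.879 FPKM against 23.4 to 35.4 in replicates 2 to 4, and the other loci of Nxph1 and Gad2 are at 0 in replicate 1.

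The genes that define the somatostatin and parvalbumin classes did not separate the tissues. Sst, the most abundant of the 8 in both tissues, stood at 271, 183, 231 and 379 FPKM in hippocampus and at 412, 471, 325 and 271 in hypothalamus. Hippocampus replicate 4 lay within the hypothalamus range, and replicate 1 lay barely below it (270.6 against 271.1 FPKM in hypothalamus replicate 4). Replicates 2 and 3 of hippocampus were lower. The difference was 0.49 ± 0.28, and without hippocampus replicate 4 it was 0.68 and the tissues still overlapped. Pvalb stood at 66.8, 23.6, 41.4 and 79.9 FPKM in hippocampus and at 85.9, 71.0, 72.8 and 75.9 in hypothalamus, a difference of 0.66 ± 0.39. Its hippocampus libraries were 3.39-fold apart, an SD of 0.77 that exceeded that of 97.7% of genes, whereas those of hypothalamus were 1.21-fold apart. Without hippocampus replicate 2, the lowest for both genes, the difference of Pvalb was 0.32 and that of Sst 0.33. In hippocampus both genes were highest in replicate 4, then 1, then 3, then 2, and the ratio of Sst to Pvalb overlapped between the tissues (4.05 to 7.76 in hippocampus and 3.57 to 6.63 in hypothalamus).

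Lhx6, the transcription factor that specifies these classes, was the lowest of the 8 in both tissues. It stood at 3.65, 2.42, 2.53 and 2.44 FPKM in hippocampus and at 1.72, 2.43, 6.06 and 4.69 in hypothalamus. The tissues overlapped, with a difference of 0.24 ± 0.34. Hypothalamus replicates 3 and 4 were above every hippocampus library, and replicate 1 was below every one. Lhx8, a related LIM homeobox gene of basal forebrain neurons, had the same order of libraries in hypothalamus, at 0.375, 1.08, 5.18 and 3.04 FPKM.

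Nxph1, which encodes neurexophilin 1, a secreted ligand of neurexins made by interneurons, overlapped between the tissues. It stood at 21.3, 31.7, 23.3 and 22.2 FPKM in hippocampus and at 25.2, 19.9, 21.7 and 23.2 in hypothalamus, with a difference of -0.11 ± 0.14. The sign turned with FPKM as deposited (0.12) and with the highest locus only (0.03). A second hippocampus locus added 0, 4.43, 4.08 and 1.84 FPKM. Equality of the tissues was not tested.

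**Figure D3:**
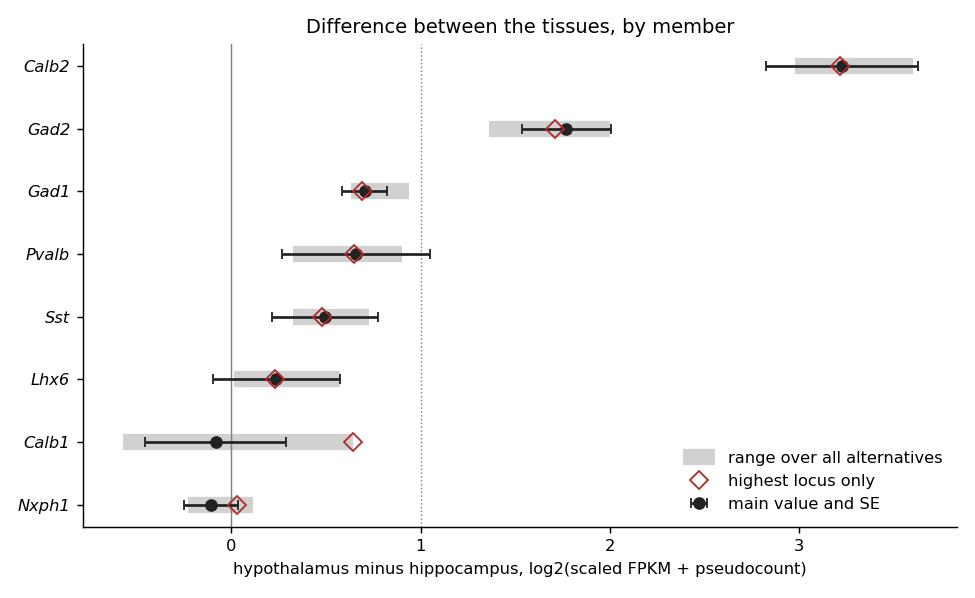
Difference of each gene between the tissues (horizontal axis, log2 scale): the main value with its SE (black), the value with only the highest locus of a symbol (red diamond) and the range over all alternatives, that one included (grey band); the dotted line marks the 2-fold limit. Calb2 (3.23) and Gad2 (1.77) lie past the limit over their whole bands, and the band of Calb1 spans -0.58 to 0.65.

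Within a tissue, some neighbours in the order of levels had ranges that overlapped and others did not. In hippocampus Sst (266 ± 83.5 FPKM, SD, n = 4) lay above all others, and Calb2 (13.1 ± 6.07) and Lhx6 (2.76 ± 0.59) were lowest. Gad1 (70.4 ± 5.71), Pvalb (52.9 ± 25.2), Calb1 (52.0 ± 14.3) and Gad2 (43.8 ± 13.8) overlapped with their neighbours in that order. Gad2 was above Nxph1 (24.6 ± 4.78) and Nxph1 above Calb2 in all 4 libraries, although the ranges of each pair overlapped. In hypothalamus Sst (370 ± 88.8) again lay above all others. Calb2 (128 ± 41.6) overlapped with Gad2 (147 ± 9.04) and with Gad1 (116 ± 16.3), while the ranges of Gad2 (135 to 155) and Gad1 (96.6 to 133) did not overlap. All 3 lay above Pvalb (76.4 ± 6.66) except that Calb2 in replicate 1 was within the range of Pvalb. Calb1 (51.5 ± 26.5) overlapped with Pvalb and lay above Nxph1 (22.5 ± 2.25), with Lhx6 (3.72 ± 2.00) last. By mean, Calb2 thus ranked 7 of 8 in hippocampus and 3 of 8 in hypothalamus. With 4 libraries an exact sign-flip test of 2 genes cannot give a two-sided p under 0.125, so none was made.

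Ratios to the summed level of Gad1 and Gad2 put the other 6 genes on the scale of total decarboxylase RNA. That sum was 120, 133, 109 and 95.0 FPKM in hippocampus and 252, 253, 276 and 268 in hypothalamus. Calb2 per Gad was 0.058 to 0.197 in hippocampus and 0.304 to 0.622 in hypothalamus, higher by 2.13 ± 0.44 on the log2 scale with no overlap. Nxph1 per Gad was 0.178 to 0.238 in hippocampus and 0.0786 to 0.10 in hypothalamus, a difference of -1.32 ± 0.13 with no overlap. Of the 6 genes these were 1 called higher and 1 called lower, where 3.98% of all genes were higher and 57.5% lower by this ratio, so the lower ratio of Nxph1 is what most genes showed (median -1.25 over all genes). Per unit of Slc32a1, the vesicular GABA transporter, Nxph1 overlapped and was not called (-1.09). Sst per Gad was 1.37 to 3.99 in hippocampus and 1.01 to 1.86 in hypothalamus, Pvalb per Gad 0.177 to 0.841 and 0.264 to 0.341, and both overlapped. Calb1 and Lhx6 overlapped too, at differences of -1.30 ± 0.40 and -0.93 ± 0.42. These overlaps rested on single libraries. Without hippocampus replicate 2, Sst and Pvalb per Gad no longer overlapped (-0.95 each), and Lhx6 per Gad was called lower (-1.06), as it was without hypothalamus replicate 3 (-1.20). Over all left-out libraries Pvalb per Gad ran from -0.95 to -0.20. Without replicate 1 of either tissue Calb1 per Gad no longer overlapped, at -1.51 without that of hippocampus and -1.63 without that of hypothalamus (over all 8 libraries, 67.7% of all genes were lower without overlap), and with the highest locus only it was -0.51.

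**Figure D4:**
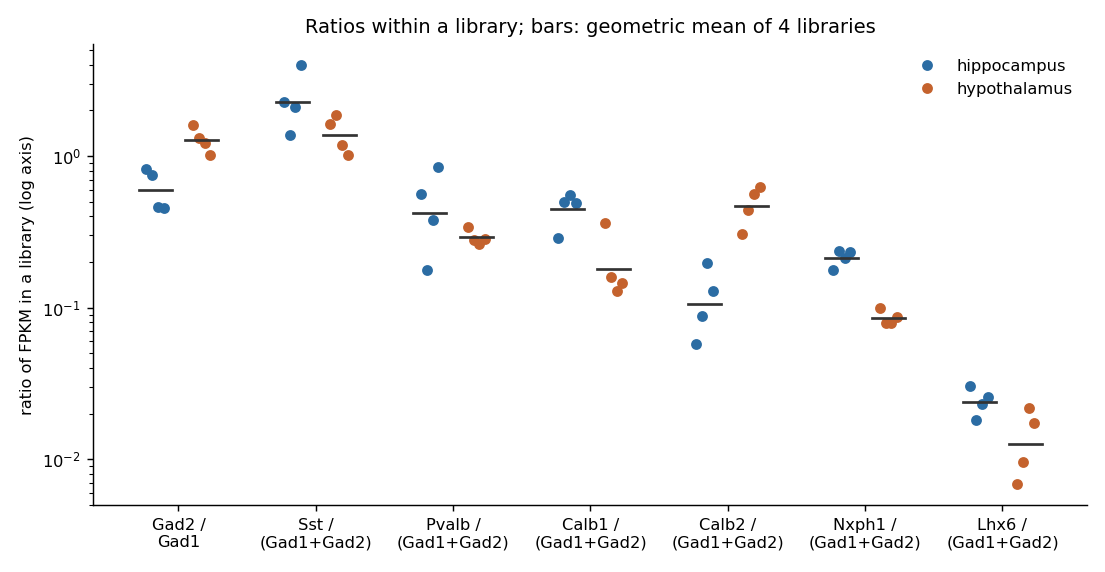
Ratio of FPKM within a library (vertical log axis) of Gad2 to Gad1 and of 6 genes to the sum of Gad1 and Gad2, for 4 hippocampus (blue) and 4 hypothalamus (orange) libraries, with the geometric mean as a bar. The ratio of Gad2 to Gad1 runs from 0.456 to 0.822 in hippocampus and from 1.01 to 1.61 in hypothalamus, and only it, Calb2 and Nxph1 have ranges that do not overlap.

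Against genes of all neurons the result depended on which of these genes were used. The geometric mean of Snap25, Syt1 and Stmn2, genes of the synapse and axon, was the denominator, and all 3 of these were lower in every hypothalamus library than in any of hippocampus. The list of such genes held 2 more: Elavl4, an RNA-binding protein gene, was called higher in hypothalamus (37.8 ± 5.02 against 15.3 ± 2.99 FPKM), and Rbfox3, encoding the nuclear antigen NeuN, overlapped. By the ratio to the 3 genes all 8 members were higher in hypothalamus and past 2-fold, where 52% of all genes were, and 6 of the 8 lay above the median gene (1.08). With all 5 genes as the denominator, an alternative added after seeing the data, 4 of the 8 were called higher (Gad1 at 1.28, Gad2 at 2.37, Pvalb at 1.24 and Calb2 at 3.91), where 31% of all genes were, and Sst, Calb1, Lhx6 and Nxph1 overlapped. Summed Gad1 and Gad2 per unit of the 3 genes was 0.163 to 0.212 in hippocampus and 0.949 to 1.02 in hypothalamus. By the 3 genes, Calb1 (1.03) and Nxph1 (1.0) lay below the median gene. Snap25, Syt1 and Stmn2 each had more than 1 locus in a table, and the part of this in the ratio was not tested.

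Genes that pack, carry and break down GABA went both ways. Of 10 such genes, listed with gephyrin and the adhesion proteins of inhibitory synapses, 2 were called higher in hypothalamus, 2 lower and 6 neither, with a median difference of 0.04. Over all genes 13.3% were called higher and 13.4% lower, with a median of -0.04. Slc32a1, which fills the vesicles of every GABA neuron, stood at 48.9, 30.1, 33.4 and 35.8 FPKM in hippocampus and 50.9, 81.0, 77.4 and 83.5 in hypothalamus. Its libraries did not overlap, but its difference of 0.96 ± 0.22 fell just short of 2-fold. Slc6a13, a GABA transporter of non-neuronal cells, had 23.6 ± 8.51 FPKM in hypothalamus against 1.97 ± 1.54, the largest higher difference of the list (3.11). Nlgn2, an adhesion protein of inhibitory synapses, had only 1.72 ± 0.79 FPKM in hypothalamus against 52.3 ± 9.88, a difference of -4.33. Loci of the tissues were listed apart, and whether Nlgn2 was annotated alike in both was not tested.

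Transcription factors of interneurons were also divided. Of 17 genes 14 were compared, and 5 were called higher in hypothalamus, 2 lower and 7 neither, with a median of 0.39, beside 13.3% higher and 13.4% lower over all genes. Nkx2-1, which acts upstream of Lhx6 in the medial ganglionic eminence and is itself a gene of the developing hypothalamus, had 11.9 ± 1.15 FPKM in hypothalamus against 0.37 ± 0.12 (3.23). Nr2f2, encoding COUP-TFII of caudal interneurons and of other cells, was at 37.2 ± 4.97 against 8.83 ± 3.0 FPKM. The other 3 called higher were the homeobox genes Dlx1, Dlx2 and Dlx5, at differences of 1.18 to 1.31. Satb1, which acts downstream of Lhx6 in somatostatin cells, was lower at 10.9 ± 2.17 against 27.0 ± 3.45 FPKM (-1.25), as was Prox1, shared with dentate granule cells (-1.61). Nr2f1, encoding COUP-TFI, had the highest mean level of this list, 20.9 ± 1.5 FPKM in hypothalamus against 38.5 ± 7.09, a difference of -0.83 that was not called.

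Of 27 peptides and other markers of interneuron classes 24 were compared, of which 6 were called higher in hypothalamus, 10 lower and 8 neither (median -0.35), beside 13.3% higher and 13.4% lower over all genes. Lower genes included Cck, the cholecystokinin gene of basket cells and of many pyramidal cells, at 92.2 ± 26.3 against 364 ± 182 FPKM. Vip, which marks interneurons that inhibit other interneurons, was at 3.6 ± 2.97 against 11.1 ± 3.55, Lamp5, a marker of neurogliaform cells, at 9.17 ± 2.02 against 39.7 ± 16.3, and Reln, encoding reelin, at 8.60 ± 0.53 against 25.2 ± 4.95. The higher genes were Penk (enkephalin, 197 ± 15.1 against 31.3 ± 8.21 FPKM), Tac1, Crh, Chodl, Rbp4 (166 ± 73.7 against 13.2 ± 6.0) and Cox6a2 (33.7 ± 2.78 against 2.20 ± 3.27), several of which have sources in the hypothalamus other than interneurons. Vip, Lamp5, Reln, Tac1, Crh, Chodl, Satb1, Prox1, Lhx8, the Dlx genes and, below, Hpcal4 and Ncald were singled out after their values had been seen. Npy, the neuropeptide Y gene, was listed at 0 in all 8 libraries, and no level is read from that.

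Receptors of somatostatin and relatives and partners of Nxph1 were also listed, and their calls stand beside 13.3% of all genes called higher and 13.4% lower. Of 5 somatostatin receptor genes 3 were compared. Sstr4 was lower in hypothalamus at 1.23 ± 0.10 FPKM against 9.86 ± 2.43 (-2.26), Sstr1 was lower at 6.56 ± 0.86 against 14.5 ± 2.61 (-1.02), and Sstr2 overlapped at 7.75 ± 2.11 against 10.8 ± 3.08. Among neurexophilins and neurexins 2 of 5 compared genes were higher, 1 was lower and 2 were neither. Nxph4, a relative of Nxph1, had 24.8 ± 3.46 FPKM in hypothalamus against 1.03 ± 0.66 (3.71), and Nrxn2, a presynaptic neurexin, at 128 ± 34.6 against 38.6 ± 8.70.

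Other calcium-binding proteins of the EF-hand family, to which Pvalb, Calb1 and Calb2 belong, went both ways. Of 15 genes 14 were compared, with 2 called higher, 6 lower and 6 neither and a median of -0.93, beside 13.3% higher, 13.4% lower and a median of -0.04 over all genes. Hpca, encoding hippocalcin of hippocampal pyramidal cells, was at 107 ± 7.16 FPKM in hypothalamus against 622 ± 228 (-2.47), and Calm2, a calmodulin gene, at 49.5 ± 9.01 against 253 ± 14.1 (-2.34). Calm3, another calmodulin gene, was at 419 ± 36.7 against 1366 ± 470.3 (-1.63). Calmodulin genes encode the same protein from similar sequences and had several loci in these tables, so reads may be shared among them. With the highest locus only, Hpcal4 (-0.92) and Ncald (-0.97) were no longer called.

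**Figure D5:**
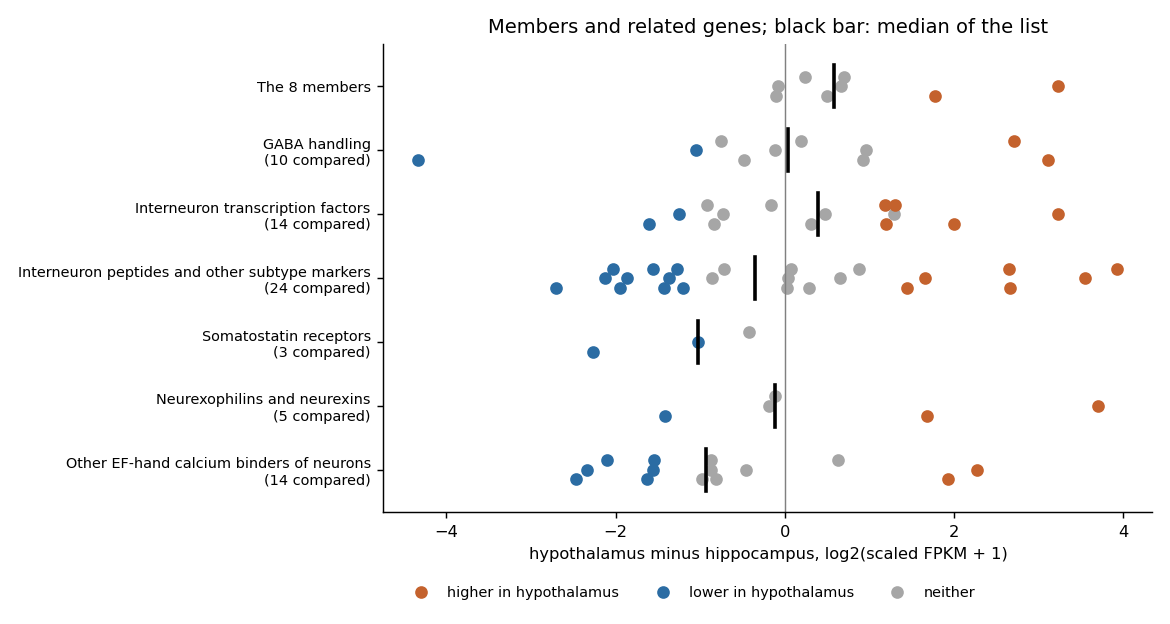
Difference between the tissues (horizontal axis, log2 scale) for the 8 members and for 6 lists of related genes, 1 point per gene, with genes called higher in hypothalamus in orange, lower in blue and neither in grey; the black bar is the median of the list. The median of the 8 members is 0.58, that of the interneuron peptides and markers -0.35 and that of other EF-hand genes -0.93.

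The genes whose profile over the 8 libraries lay closest to each member were found by the root mean square distance of log2 levels, each relative to its own mean, among the 8065 genes that averaged 5 FPKM or more. The pair closest to Gad1 was Pex13 and Osbpl2 (distances 0.06 and 0.08) and to Gad2 Tmem158 and Ankrd34b (0.17 and 0.17). For Sst these were Anxa5 and Plcd1 (0.14 and 0.18), for Pvalb Chchd6 and Ptrhd1 (0.11 and 0.12), and for Calb1 MGC109340 and Stag2 (0.16 and 0.17). For Lhx6 they were Kcnc4 and Kcnc1 (0.21 and 0.23), for Nxph1 Dnajb9 and Evi5 (0.05 and 0.06), and for Calb2 Vat1 and Ubac2 (0.38 and 0.40). The number of genes within a distance of 0.25 was 1186 for Nxph1 and 637 for Gad1, but 50 for Pvalb, 41 for Calb1, 29 for Sst, 13 for Gad2, 6 for Lhx6 and 0 for Calb2. None of the 8 members was among the closest pair of another.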

How the data were processed

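Libraries of poly-A RNA, 4 of hippocampus and 4 of hypothalamus, were read by Illumina sequencing, per the labels' protocols. What the authors deposited were FPKM, in 1 table per tissue, with a status beside each value. Cufflinks, Cuffdiff, TopHat, TopHat2, Bowtie and Bowtie2, with the build rn5, are named in the submitters' processing notes, without roles or options. All loci of the 8 members had the status OK in every library. The tables hold no coordinates, so none are given for the loci.

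The loci of each symbol were added up, and each library was scaled by the median of its ratios to the geometric mean over the 15892 symbols of both tables. Genes that averaged 1 FPKM or more were compared on log2(FPKM + 1) by size and separation of libraries, since no table holds both tissues. The calculation was tested on simulated data (Python 3.11.15, numpy 2.4.6, pandas 2.3.3). The members, lists and rules were chosen with earlier results of these data known. Genes named by rule were the members, the 2 called genes with the largest difference and the 2 with the highest mean in each list of related genes, the highest gene of a marker list, genes used as denominators, and the 2 nearest profiles per member. Other genes were named after their values had been seen, among them the markers set beside members. Alternatives covered scaling, pseudocount, low-level filter, loci, left-out libraries and replicate number. Promoter windows came from RefSeq tables of GRCr8, a build other than that of the files, and were used for sequence only. Symbols matched the RefSeq gene table for all 8 members. Some genes that the rule names are not reported here.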

Additional observations from a re-analysis of the deposited data

Results flagged for a closer look

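Within each tissue, the 8 genes were examined for a single library far from the other 3, by Dixon's ratio of the end gap to the range with its critical value for 4 libraries as the limit. Of 16 groups of libraries 2 passed, and chance flags about 1 in 20 groups. Calb1 in hypothalamus replicate 1 stood at 91.1 FPKM, with the other 3 libraries between 35.5 and 40.3 (ratio 0.865). Lhx6 in hippocampus replicate 1 stood at 3.65 FPKM, with the others between 2.42 and 2.53 (ratio 0.894). Both were in replicate 1 of their tissue, the libraries in which values were also spread over loci in another way.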

How the results depend on the processing

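Gad2 and Calb2 were the only members called, both higher in hypothalamus, under all alternatives except one: when symbols of several loci were dropped, Gad2, Calb1 and Nxph1 were not tested and 1 member, Calb2, was called. No member was called lower under any alternative. Differences that moved by more than the spread between libraries were those of Gad1 (0.94) and Nxph1 (0.12) with FPKM as deposited, Calb1 (0.65) with the highest locus only, and Gad2 (1.36) without hippocampus replicates 3 and 4, an alternative added after seeing the data. Leaving out each library in turn gave 1.6 to 1.91 for Gad2, 2.98 to 3.48 for Calb2, 0.63 to 0.79 for Gad1, 0.33 to 0.68 for Sst, 0.32 to 0.90 for Pvalb, 0.01 to 0.47 for Lhx6, -0.18 to 0.01 for Nxph1 and -0.39 to 0.06 for Calb1, so the last 2 changed sign. Per unit of Snap25, Syt1 and Stmn2 in place of Gad1 and Gad2, the difference of Nxph1 was 1.0, against -1.32, and per unit of all 5 genes of neurons, added after seeing the data, it was 0.46 and overlapped. Per unit of Slc32a1 it was -1.09 and overlapped. In a replicate block, asking that the 4 same-numbered differences share a sign, 1431 genes were higher and 1431 lower, and Gad2 and Calb2 were again the members called. Same-numbered libraries did not deviate together (correlations of -0.08, -0.06, 0.08 and 0.14 across genes). Such correlations cannot tell whether same-numbered libraries share an animal or a batch. Replicate 1 of both tissues did differ from the others in how values fell on loci. Read numbers are unknown, which leaves the counting error of low genes such as Lhx6 unknown.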

Other observations

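Markers of Purkinje cells and of striatal neurons were also looked up in the tissues. Pcp4, a small calmodulin-binding protein gene of Purkinje cells and of other neurons, had 804 ± 94.1 FPKM (SD, n = 4) in hypothalamus against 42.6 ± 18.4, a difference of 4.32 ± 0.38 (log2, SE) with no overlap. Pcp2, a gene of Purkinje cells, was at 0 in all 4 hippocampus libraries and at 0 to 1.24 FPKM in hypothalamus. Car8, of the same list, overlapped, at 6.04 ± 0.72 FPKM in hypothalamus against 6.62 ± 2.63 (-0.06). Of 7 striatal markers, 3 were called higher in hypothalamus (Penk, Drd2 and Rgs9), 1 lower and 3 neither, beside 13.3% higher and 13.4% lower over all genes. Car8, Drd2 and Rgs9 were singled out after their values had been seen.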
